A study of Mus musculus with 13 samples.

Results

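The core spliceosome and hnRNP genes are 68 of the 55421 genes in the tables. They were chosen by symbol: all genes named Hnrnp, Sf3a or Sf3b, U2af, Snrp, Prpf with a number (without the kinase Prpf4b) or Lsm with a number, with at least 10 raw counts in at least 2 of the 10 libraries. Of 75 matching rows, 4 with pseudogene symbols and Prpf4b were left out, and 2 genes missed the count minimum. These were Snrpn, which had 0 counts in each library, and U2af1l4, whose highest count was 11. By role the 68 members comprise 20 hnRNP genes, 9 genes of the SF3A and SF3B complexes, 2 genes of the U2AF dimer, 4 genes of U1 and U2 snRNP proteins and 7 genes of the Sm core. They also comprise 12 PRPF genes, 8 LSM genes of the U6 snRNP and of mRNA decay, 5 other LSM genes, and Snrpert, which is on no role list. The 8, Lsm1 to Lsm8, are called U6 LSM genes below, although Lsm1 is in the decay ring and not in the U6 ring. Snrpert, whose symbol does not mark it as a pseudogene, is the annotated pseudogene copy of Snrpe.

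The spliceosome removes introns from pre-mRNA. The U1 snRNP binds the start of an intron, the U2AF dimer and the U2 snRNP with its SF3A and SF3B complexes bind the branch point and the 3′ end, and the U4/U6.U5 tri-snRNP with its PRPF proteins joins before catalysis. Rings of Sm proteins hold the U1, U2, U4 and U5 RNAs, a ring of LSM proteins holds U6, and hnRNP proteins coat pre-mRNA and often oppose the SR proteins, of which SRSF2 is one. Mutations of SRSF2, SF3B1 and U2AF1 recur in myelodysplastic syndrome, a clonal disorder of blood stem cells, and SETD2 is the methyltransferase that places trimethyl marks on lysine 36 of histone H3.

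RNA-seq libraries came from hematopoietic stem and progenitor cells (HSPCs) of mouse bone marrow in 4 groups: Setd2 knockout with Srsf2 mutated, called double mutant here (n = 3), Srsf2 mutated (n = 3), Setd2 knockout (n = 2) and wild type (n = 2). The series asks what SETD2 does in HSPCs that carry mutant SRSF2. The alleles Mx1-Cre+, Setd2fl/fl and Srsf2P95H/+ are named only for 3 single-cell samples, which were not analysed here, and are not stated for the bulk libraries. Mx1-Cre is driven by an interferon-inducible promoter that acts in blood cells and in other tissues. Strain, sex, age and whether replicates came from separate mice are not stated, so the p-values measure the spread between libraries, which may be technical.

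The 10 libraries held 32117387 to 50445434 counts each. The whole-gene Setd2 level, in CPM (counts scaled to library size with TMM factors), was 129.6 to 131 in double mutant, 157 to 221 in Srsf2 mutated, 213 to 231 in Setd2 knockout and 145 to 158 in wild type libraries, so it was highest in libraries labelled Setd2 knockout. A whole-gene count includes exons outside any deletion and checks neither genotype. Kit, a receptor of progenitor cells, ranged over 159 to 167, 194 to 219, 434 to 455 and 399 to 446 CPM in the same order of groups. Wild type libraries stood apart in 2 ways. The summed CPM of 12 nuclear-retained noncoding RNAs such as Malat1 was 1289 to 1382 in double mutant, 800.1 to 1174 in Srsf2 mutated, 1084 to 1095 in Setd2 knockout and 188 to 205 in wild type libraries. Xist, transcribed from the inactive X chromosome of females, was at 6.81 to 7.94 CPM in double mutant, 1.39 to 2.54 CPM in Srsf2 mutated, 0.562 to 0.635 CPM in Setd2 knockout and 472 to 499 CPM in wild type libraries, while the Y-linked gene Ddx3y reached 119.5 to 128 CPM in double mutant and 104 to 119 CPM in Srsf2 mutated libraries and had 0 counts in the other 4. Each comparison with wild type below, and the interaction, rests on these 2 libraries, and both share these features. The part of nuclear RNA and sex in the results was not tested. Among Srsf2 mutated libraries, replicate 3 stood further from the others: the mean chi-square per gene between 2 libraries, near 1 for sampling noise alone, was 27.2 and 49.6 with replicate 3 and 13.7 between the other two, against 29.8 between the wild type libraries. Hnrnph2 is the 1 member on chromosome X.

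Between genes, levels are compared as deposited FPKM, which divides by gene length. Averaged over the 10 libraries, the highest members were Hnrnpa0 with 299 FPKM, Hnrnpa1 with 289.6, Hnrnpa2b1 with 224, Hnrnpab with 181 and the Sm gene Snrpb with 148 FPKM. All but Snrpb belong to the A/B group, whose proteins package nascent RNA and repress splice sites. The lowest were Prpf39 with 6.98 FPKM, Lsm1 with 6.09, Lsm11 with 3.13, Prpf40b with 2.29 and Snrpf with 1.27 FPKM. The Snrpf value is uncertain, because 85.4% of its exon bases overlap other annotated genes and its pseudogene copies held up to 395% of its own counts.

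Together the 68 members took 1.55 ± 0.02% of all counts in double mutant (SD, n = 3), 1.85 ± 0.02% in Srsf2 mutated (n = 3), 1.71 ± 0.02% in Setd2 knockout (n = 2) and 1.40 ± 0.04% in wild type libraries (n = 2). No 2 groups overlapped. The 20 hnRNP genes took 0.976 to 1.01% in double mutant, 1.18 to 1.22% in Srsf2 mutated, 1.04 to 1.06% in Setd2 knockout and 0.744 to 0.806% in wild type libraries. The 9 SF3A and SF3B genes followed another order, with 0.182 to 0.185% in double mutant, 0.214 to 0.222% in Srsf2 mutated, 0.232 to 0.234% in Setd2 knockout and 0.217 to 0.222% in wild type libraries, so that here the double mutant was lowest and Srsf2 mutated and wild type libraries overlapped. These shares are of raw counts, without the TMM factors that scale CPM. Those factors were 1.09 in both Setd2 knockout libraries, 0.94 and 0.93 in wild type and 0.96 in each double mutant library. The order of groups therefore depends on the scaling. By the test given below, 4 of the 9 SF3A and SF3B genes were lower and 1 higher in Setd2 knockout against wild type. In bulk RNA, fewer cells of a type and less RNA per cell cannot be told apart.

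**Figure D1:**
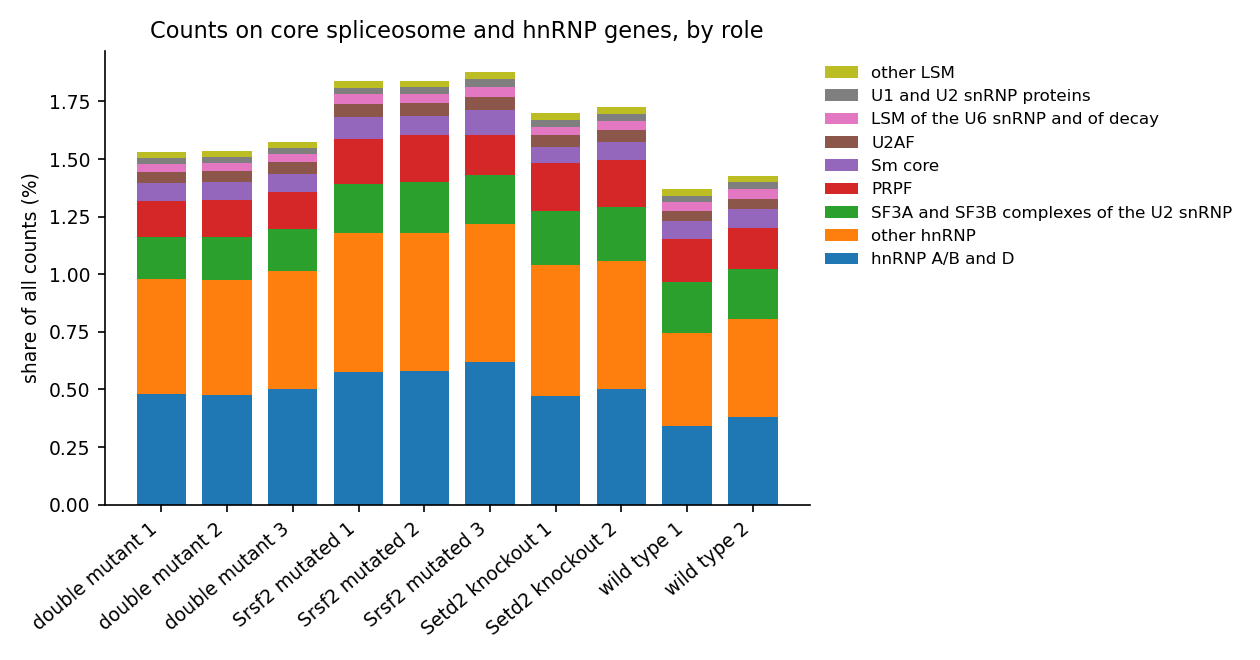
Share of all counts (%) on the members in each library, stacked by role, for double mutant (3 libraries), Srsf2 mutated (3), Setd2 knockout (2) and wild type (2); Snrpert is not drawn. The hnRNP layers at the bottom are thinnest in the wild type bars (0.744 to 0.806% together) and thickest in the Srsf2 mutated bars (1.18 to 1.22%).

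Promoter sequences are shown for 6 members, 3 that rose and 3 that fell in Setd2 knockout against wild type. Of the members, 55 had a promoter entry in the RefSeq table (GRCm38.p6), and each sequence is the 250 bases before the listed start, 5′ to 3′ on the gene's strand. Capitals mark matches on either strand to 8 searched motifs. The letters searched were CCGGAAG for ETS factors, AAGATGGCG for YY1 and TGACGTCA for the cAMP response element (CRE). Those of the E-box, bound by MYC and its relatives, were CACGTG, while CCAAT and the GC box, whose letters are GGGCGG, mark many housekeeping promoters. The TATA box was searched as TATAAA, and NRF1 is given by name alone. Prpf39, Hnrnph1 and Prpf38b, and Lsm5, Lsm6 and Snrpe, had the largest rises and falls among members with groups that did not overlap and a window of which at most 20 bases lie inside the gene as annotated in GENCODE M21.
Prpf39 promoter, chr12:65036084-65036333, plus strand: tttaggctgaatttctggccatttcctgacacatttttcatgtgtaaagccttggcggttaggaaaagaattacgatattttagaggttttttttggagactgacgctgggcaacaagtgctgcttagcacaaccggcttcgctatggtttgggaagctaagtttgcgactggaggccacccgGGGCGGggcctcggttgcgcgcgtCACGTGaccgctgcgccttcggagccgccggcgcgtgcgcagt
Hnrnph1 promoter, chr11:50376740-50376989, plus strand: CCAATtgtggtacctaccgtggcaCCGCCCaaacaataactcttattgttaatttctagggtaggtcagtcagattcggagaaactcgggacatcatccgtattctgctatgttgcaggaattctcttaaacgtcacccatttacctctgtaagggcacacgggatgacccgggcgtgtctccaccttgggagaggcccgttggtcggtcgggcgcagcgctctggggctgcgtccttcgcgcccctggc
Prpf38b promoter, chr3:108911730-108911979, minus strand: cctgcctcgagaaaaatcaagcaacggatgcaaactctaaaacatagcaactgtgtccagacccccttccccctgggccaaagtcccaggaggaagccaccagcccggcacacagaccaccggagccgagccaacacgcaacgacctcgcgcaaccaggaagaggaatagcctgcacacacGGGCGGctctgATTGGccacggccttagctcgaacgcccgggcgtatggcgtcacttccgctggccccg
Lsm5 promoter, chr6:56704700-56704949, minus strand: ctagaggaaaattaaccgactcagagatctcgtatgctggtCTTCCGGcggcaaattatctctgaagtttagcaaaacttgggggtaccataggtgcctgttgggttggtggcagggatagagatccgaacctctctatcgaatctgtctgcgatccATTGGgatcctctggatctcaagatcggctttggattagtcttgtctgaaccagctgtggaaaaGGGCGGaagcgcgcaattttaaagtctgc
Lsm6 promoter, chr8:78821153-78821402, minus strand: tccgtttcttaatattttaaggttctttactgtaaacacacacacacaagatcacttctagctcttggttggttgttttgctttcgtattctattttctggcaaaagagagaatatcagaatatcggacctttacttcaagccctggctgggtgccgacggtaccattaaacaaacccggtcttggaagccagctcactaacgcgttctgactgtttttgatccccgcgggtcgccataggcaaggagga
Snrpe promoter, chr1:133610281-133610530, minus strand: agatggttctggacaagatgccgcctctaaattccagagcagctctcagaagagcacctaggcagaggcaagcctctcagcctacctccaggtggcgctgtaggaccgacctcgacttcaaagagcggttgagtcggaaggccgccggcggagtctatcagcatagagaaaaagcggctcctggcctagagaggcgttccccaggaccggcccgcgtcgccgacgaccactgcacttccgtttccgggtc
The windows of the 3 members that rose and that of Lsm5 hold a GC box. Hnrnph1, Prpf38b and Lsm5 also have a CCAAT box, Prpf39 has an E-box, and Lsm5 has the ETS letters. None of the 8 motifs was found in the windows of Lsm6 and Snrpe. Over all 55 member promoters, the ETS motif was found in 13 (23.6%), against 12.8% of 11955 promoters of tested genes. The CCAAT box was found in 50.9% of member promoters, against 35.8% of those of tested genes, and the GC box in 61.8%, against 55.1%. The E-box stood in 9.09%, against 7.92%, the TATA box in 5.45%, against 7.18%, and the CRE in 3.64%, against 2.52%. The NRF1 and YY1 letters were found in none of the 55 windows, against 1.47% and 1.08% of those of tested genes. Overlapping matches of different motifs were not separated.

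Setd2 knockout against wild type asks what loss of SETD2 does where Srsf2 is normal. More hnRNP genes rose than fell in the knockout: 9 of 20 rose, 1 fell, and their median log2 fold change was 0.20. The 19 ring and snRNP genes are the Sm core, the U1 and U2 proteins and the U6 LSM genes. Of these 10 fell and 1 rose, with a median of -0.30. Falls were called in 4 of 7 Sm genes, 5 of 8 U6 LSM genes and 1 of 4 U1 and U2 proteins. The 1 that rose was also a U1 or U2 protein. Over all 68 members 16 rose and 20 fell, which is 23.5 and 29.4% of them, against 18.7 and 19.9% of the 19289 tested genes called higher and lower (38.6% either way). The members' median was -0.08, against 0.04 over all tested genes, and ran over -0.14 to -0.0076 when 1 library was left out, being -0.0076 without Setd2 knockout replicate 1, -0.12 without replicate 2, -0.14 without wild type replicate 1 and -0.035 without replicate 2. Calls used edgeR's quasi-likelihood test with Benjamini-Hochberg adjustment over all tested genes, at an adjusted p under 0.05.

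Hnrnph1 (chr11:50376990-50386528, plus strand, GRCm38) encodes an hnRNP of the H/F family, which binds runs of G and regulates nearby splice sites. It had 799.9 and 754 CPM in Setd2 knockout libraries, against 292 and 304 CPM in wild type libraries. Both knockout values were more than double the wild type values, with a log2 fold change of 1.38 ± 0.07 (SE, adjusted p = 1.29e-09). Prpf39 (chr12:65036333-65063386, plus strand), whose yeast counterpart Prp39 is a U1 snRNP protein, had 92.2 and 83.3 CPM in the knockout, against 33.1 and 25.9 CPM in wild type, a log2 fold change of 1.57 ± 0.12 (SE, adjusted p = 8.26e-08). Hnrnpdl (chr5:100033577-100039664, minus strand), a relative of the AU-rich element binding protein HNRNPD, had 312 and 312 CPM in the knockout, against 159 and 163 CPM in wild type, a log2 fold change of 0.95 ± 0.08 (SE, adjusted p = 1.6e-07). In all 3 genes the knockout libraries lay close together and clear of both wild type libraries.

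Prpf38b, a protein with a PRP38 domain, averaged 220.1 ± 5.77 CPM in the knockout and 128 ± 5.15 CPM in wild type (SD, n = 2 each), a log2 fold change of 0.79 ± 0.08 (SE, adjusted p = 1.35e-06). Hnrnph3, a short member of the H/F family, had 26.6 and 27.8 CPM in the knockout, against 14.0 and 19.1 CPM in wild type, a log2 fold change of 0.71 ± 0.13 (SE, adjusted p = 0.00047). Hnrnpa1, a splicing repressor that acts against SR proteins, had 848 and 902 CPM in the knockout, against 535 and 627 CPM in wild type, a log2 fold change of 0.59 ± 0.08 (SE, adjusted p = 3.59e-05). For these 3 genes too the groups did not overlap, although the 2 wild type libraries of Hnrnph3 and Hnrnpa1 differed more from each other than did the knockout libraries. The remaining hnRNP rises were smaller: 0.33 in Hnrnpu, 0.31 in Hnrnpr, 0.29 in Hnrnpm, 0.27 in Hnrnpa3 and 0.22 in Hnrnpa2b1, whose adjusted p of 0.0251 rose to 0.134 without Setd2 knockout replicate 2, to 0.073 without wild type replicate 1 and to 0.171 with scaling within 5 length classes. Hnrnpul1 fell by 0.27, and Hnrnpk, a poly(C) binding protein, had a log2 fold change of 0.03 ± 0.07 (SE, adjusted p = 0.792).

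**Figure D2:**
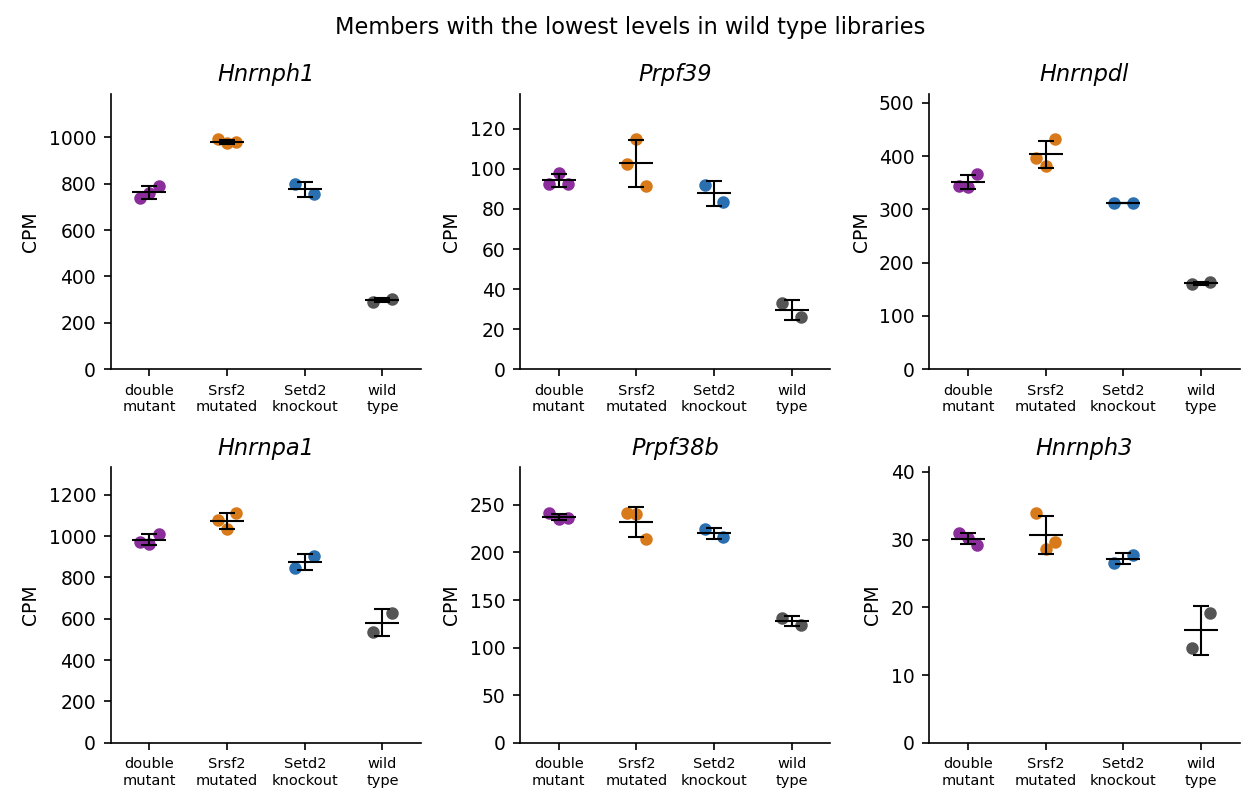
Expression (CPM, linear axis from 0) of 6 members in each library, with points for libraries and bars for the mean ± SD of the double mutant (n = 3), Srsf2 mutated (n = 3), Setd2 knockout (n = 2) and wild type (n = 2) groups. In each panel both wild type points lie below all points of the other 3 groups, as in Hnrnph1, with 736 to 792 CPM in double mutant and 292 to 304 CPM in wild type libraries.

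Among the genes that fell in the knockout, Sf3b5, a small SF3B subunit, had 97.7 and 98.5 CPM in knockout libraries, against 139 and 143 CPM in wild type libraries, a log2 fold change of -0.52 ± 0.12 (SE, adjusted p = 0.00225). Sf3b6, the SF3B subunit that contacts the branch point adenosine, had 75.1 and 80.9 CPM, against 111 and 106 CPM in wild type, a log2 fold change of -0.47 ± 0.09 (SE, adjusted p = 0.000486). Both genes were lower in both knockout libraries by more than the spread within groups. Snrpd2, a subunit of the Sm ring, had 90.4 and 99.4 CPM in the knockout, against 130.2 and 139 CPM in wild type, a log2 fold change of -0.50 ± 0.13 (SE, adjusted p = 0.00715). In the LSM ring, Lsm4 had 70.8 and 76.8 CPM in the knockout, against 93.3 and 117 CPM in wild type (log2 change -0.51 ± 0.12 SE, adjusted p = 0.00282), and Lsm5 had 16.1 and 18.9 CPM, against 24.9 and 24.5 CPM (log2 change -0.50 ± 0.14 SE, adjusted p = 0.0127). Lsm1, Lsm2 and Lsm6 fell by 0.40, 0.38 and 0.41, and Lsm1 is the subunit that sets the cytoplasmic decay ring apart from the nuclear U6 ring. Snrpert, a single-exon pseudogene copy of Snrpe with 279 bases, had 4.17 and 6.24 CPM in the knockout, against 8.61 and 8.23 CPM in wild type. Its fall of 0.69 is the largest (adjusted p = 0.0238), and its counts were 5.23 to 9.32% of those of Snrpe.

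These falls were small and several rested on single libraries. Without Setd2 knockout replicate 1 the fallen members numbered 5 and not 20, those of the 19 ring and snRNP genes 2 and not 10, those of the 8 U6 LSM genes 2 and not 5, and those of the 7 Sm genes 0 and not 4. Without wild type replicate 2 the fallen members numbered 11, with 5 of the 19 and 1 of the Sm genes. In the first case the adjusted p was 0.279 for Snrpert, 0.148 for Lsm5, 0.0851 for Snrpb and 0.0794 for Snrpd2. In the second it was 0.0714 for Snrpert, 0.0742 for Snrpb, 0.0605 for Lsm4 and 0.052 for Snrpd2. Without wild type replicate 1 it was 0.0554 for Lsm5 and 0.0964 for Snrpert. Scaling mattered as well: with upper-quartile scaling 21 members rose and 13 fell, 61.8% of the calls being rises, and with a stricter filter on low counts 21 rose and 14 fell (60.0%), against 16 and 20 (44.4%) in the values above. Upper-quartile scaling gave a median of all tested genes of 0.13 in this comparison, against 0.04. The hnRNP rises numbered 7 to 11 in all alternatives run, those that leave out a library included.

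Sf3b1 and U2af1 are mutated in human myelodysplastic syndrome. Sf3b1, the SF3B subunit at the branch point, averaged 612 ± 23.0 CPM in the knockout and 515 ± 45.6 CPM in wild type (SD, n = 2 each), a log2 fold change of 0.25 ± 0.07 (SE, adjusted p = 0.0153). U2af1, which reads the AG at the 3′ splice site, averaged 151 ± 2.83 CPM and 127 ± 1.51 CPM in the same groups (log2 change 0.25 ± 0.07 SE, adjusted p = 0.0157), and the counts of its pseudogene copies came to up to 13.0% of its own. Without Setd2 knockout replicate 1 the adjusted p was 0.11 for Sf3b1 and 0.0543 for U2af1, without replicate 2 it was 0.1 for U2af1, and without wild type replicate 2 it was 0.128 for Sf3b1 and 0.0702 for U2af1. U2af2, which binds the polypyrimidine tract, had a log2 fold change of -0.07 ± 0.07 (SE, adjusted p = 0.455). Prpf8, the protein at the heart of the U5 snRNP, had 694 and 645 CPM in the knockout, against 876 and 811 CPM in wild type (log2 change -0.33 ± 0.11 SE, adjusted p = 0.0202). Its adjusted p rose above 0.05 without either knockout replicate (0.0544 and 0.146), without wild type replicate 1 (0.11), with upper-quartile scaling (0.0829) and with the stricter filter (0.0781).

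Cell type markers differed between the same libraries. All 9 tested markers of early neutrophils fell in Setd2 knockout, with summed levels of 14445 to 15602 CPM, against 26725 to 27077 CPM in wild type, and all 10 markers of late neutrophils fell (6367 to 6947 CPM, against 17654 to 24578 CPM). Of 14 erythroid markers 13 rose, with 2425 to 2450.2 CPM, against 865 to 946 CPM. Of 13 genes of dividing cells 8 fell (4438 to 4506 CPM, against 5272 to 5350.2 CPM), and 8 of 9 tested nuclear-retained RNAs rose, with a median log2 fold change of 2.69. Of 8 eosinophil markers 6 fell (174 to 186 CPM, against 850 to 987 CPM). Of 9 monocyte and macrophage markers 5 fell and 2 rose, and of 11 B lymphoid markers 5 fell and 1 rose. No marker on these lists was at 0 in all libraries. The part of these differences in the members' changes was not tested.

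Srsf2 mutated against wild type asks what the Srsf2 mutation does where Setd2 is normal. More hnRNP genes rose than fell, with 15 of 20 called higher, 2 lower and a median log2 fold change of 0.50. Most SF3A and SF3B genes fell, with 7 of 9 called lower, 1 higher and a median of -0.37. Over all 68 members 25 rose and 18 fell, which is 36.8 and 26.5%, against 28.5 and 27.8% of all tested genes called higher and lower (56.3% either way). The members' median was 0.08, against 0.08 over all tested genes. It was 0.011 without wild type replicate 1, 0.017 without Srsf2 mutated replicate 3 and 0.12 without Srsf2 mutated replicate 2. The 19 ring and snRNP genes were mixed, with 6 called higher and 3 lower. This comparison shares its wild type libraries with the one before, so the values of both are set side by side and likeness between them is not counted.

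Prpf39, Hnrnph1 and Hnrnpdl led the rises. Hnrnph1 had 991, 974 and 978 CPM in Srsf2 mutated libraries, against 292 and 304 CPM in wild type, a log2 fold change of 1.72 ± 0.07 (SE, adjusted p = 8.66e-12), where Setd2 knockout gave 1.38. Prpf39 had 102, 115 and 91.4 CPM, against 33.1 and 25.9 CPM in wild type, a log2 fold change of 1.80 ± 0.11 (SE, adjusted p = 2.44e-09), where the knockout gave 1.57. Hnrnpdl had 397, 381 and 431 CPM, against 159 and 163 CPM in wild type, a log2 fold change of 1.32 ± 0.07 (SE, adjusted p = 4.9e-10), where the knockout gave 0.95. In each of them the lowest Srsf2 mutated library lay above double the highest wild type library. Hnrnpa1 with 0.89 ± 0.08 and Hnrnph3 with 0.89 ± 0.12 (SE) followed, then Prpf38b with 0.86 ± 0.07, Hnrnpa3 with 0.72 ± 0.07 and Hnrnpa2b1 with 0.66 ± 0.07, where the knockout gave 0.27 and 0.22 for the last 2. Hnrnph2 had 147, 137 and 155 CPM in Srsf2 mutated libraries, against 85.9 and 103 CPM in wild type (log2 change 0.63 ± 0.08 SE, adjusted p = 8.49e-06); it is X-linked, and the groups differed in Xist and Ddx3y as given above. Hnrnpk rose by 0.37 ± 0.07 (SE, adjusted p = 0.000202). The 2 hnRNP genes that fell were a pair: Hnrnpl, which binds CA repeats, by 0.24, and its relative Hnrnpll, known for switching CD45 exons in lymphocytes, by 0.39. Hnrnpll had 114, 124 and 120.3 CPM in Srsf2 mutated libraries, against 156 and 159 CPM in wild type libraries, and the groups did not overlap.

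The largest falls were in LSM and SF3A genes. Lsm11, which with Lsm10 replaces 2 Sm proteins in the U7 snRNP that cuts histone pre-mRNAs, had 14.4, 14.1 and 17.0 CPM in Srsf2 mutated libraries, against 33.0 and 32.1 CPM in wild type, a log2 fold change of -1.10 ± 0.11 (SE, adjusted p = 5.66e-07). Lsm10 had 8.64, 9.79 and 9.14 CPM, against 15.0 and 14.9 CPM in wild type (log2 change -0.70 ± 0.12 SE, adjusted p = 8.57e-05). Both U7 genes were thus lower in all 3 Srsf2 mutated libraries. Lsm2, in both the U6 and the decay ring, had 45.3, 39.1 and 45.2 CPM, against 85.5 and 92.8 CPM in wild type (log2 change -1.05 ± 0.08 SE, adjusted p = 4.14e-08), and Lsm1 fell by 0.60. Sf3a1, the SF3A subunit that ties the complex to the U2 snRNP, had 149.9, 160.4 and 139 CPM in Srsf2 mutated libraries, against 267 and 253 CPM in wild type (log2 change -0.80 ± 0.07 SE, adjusted p = 1.7e-07). Sf3b3, a scaffold of SF3B, had 357, 352 and 330.3 CPM, against 515 and 472 CPM in wild type (log2 change -0.51 ± 0.07 SE, adjusted p = 8.25e-06). Sf3b1 was the 1 gene of these complexes called higher, with 727, 744 and 708 CPM in Srsf2 mutated libraries, against 547 and 483 CPM in wild type (log2 change 0.50 ± 0.07 SE, adjusted p = 1.63e-05). Prpf8 fell by 0.47, with 655, 666 and 506 CPM in Srsf2 mutated libraries, of which replicate 3 was lowest, against 876 and 811 CPM in wild type.

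U2af1 rose by 0.40 ± 0.07 (SE, adjusted p = 0.000144), and U2af2 had a log2 fold change of 0.15 ± 0.07 (SE, adjusted p = 0.0711), which passed the threshold with DESeq2 (0.021), its size factors (0.0343), upper-quartile scaling (0.00572), the stricter filter (0.00408), scaling within 5 length classes (0.00423) and without wild type replicate 2 (0.0304). Snrpb had a log2 fold change of 0.12 ± 0.09 (SE, adjusted p = 0.272), called only with the stricter filter (0.0454), and Lsm4 one of 0.09 ± 0.11 (SE, adjusted p = 0.475), which was negative and called with scaling within 5 length classes (-0.33, adjusted p = 0.0029). Snrpf had a log2 fold change of 1.31 ± 0.49 (SE, adjusted p = 0.0331) from 23 to 108 counts a library in Srsf2 mutated, against 21 and 23 counts in wild type, and its adjusted p was 0.211 without Srsf2 mutated replicate 2, 0.113 and 0.142 without wild type replicate 1 and 2, 0.133 with scaling within 5 length classes and 0.0687 with only the groups compared. With upper-quartile scaling, and likewise with the stricter filter, 31 members rose and 13 fell (70.5% of calls higher), against 25 and 18 (58.1%) above. Upper-quartile scaling gave a median of all tested genes of 0.18, against 0.08. Without wild type replicate 2 the SF3A and SF3B falls numbered 4 and not 7, and without wild type replicate 1 the rises among the 19 ring and snRNP genes numbered 2 and not 6.

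Beside these values, all 11 B lymphoid markers rose in Srsf2 mutated libraries (1157 to 1226 CPM, against 128 to 147 CPM in wild type), 9 of 10 T and NK cell markers rose (51.3 to 54.1 CPM, against 13.6 to 14.6 CPM) and all 9 early neutrophil markers fell (9317 to 10959 CPM, against 26725 to 27077 CPM). Of 14 erythroid markers 8 rose and 3 fell (6397 to 8175 CPM, against 865 to 946 CPM). Of 7 mast cell and basophil markers 5 rose (1028 to 1226 CPM, against 379.7 to 395 CPM), and of 6 tested megakaryocyte markers 4 fell (171 to 182 CPM, against 232 to 233 CPM). Of 9 monocyte and macrophage markers 5 rose and 2 fell, and of 10 stem cell markers 2 rose and 6 fell. Of 8 eosinophil markers 5 rose and 2 fell (1291 to 1560 CPM, against 850 to 987 CPM). Of 9 nuclear-retained RNAs 7 rose and 1 fell. Of the 13 genes of dividing cells 10 fell and 1 rose. Their part in the members' changes was not tested.

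**Figure D3:**
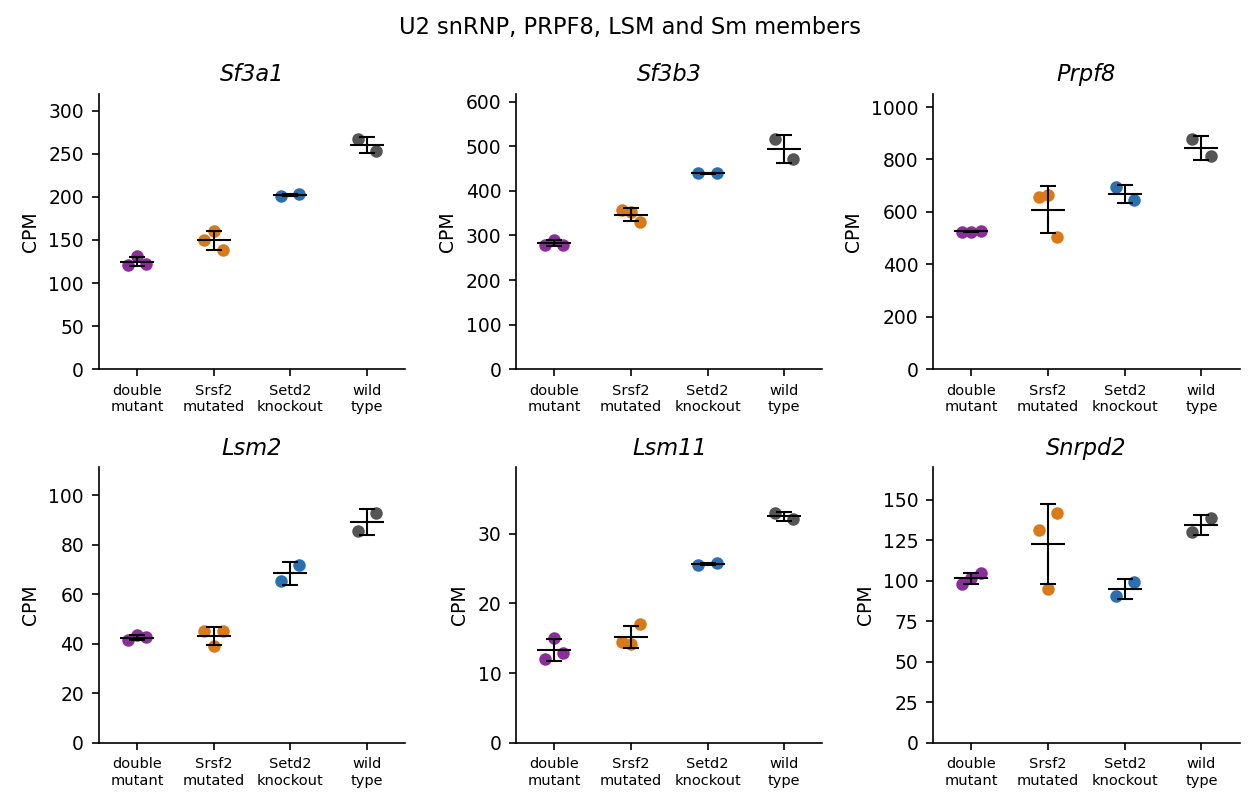
Expression (CPM, linear axis from 0) of 6 members of the U2 snRNP, the tri-snRNP, the LSM rings and the Sm ring in each library, drawn as points with the mean ± SD of the double mutant (n = 3), Srsf2 mutated (n = 3), Setd2 knockout (n = 2) and wild type (n = 2) groups. Sf3a1, Sf3b3, Lsm2 and Lsm11 were lower in double mutant and Srsf2 mutated libraries than in Setd2 knockout and wild type libraries, while in Snrpd2 the Srsf2 mutated libraries spread from 95.1 to 142 CPM.

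Double mutant against Srsf2 mutated asks what loss of SETD2 does in cells with mutated Srsf2, and it holds no wild type library. It shares the Srsf2 mutated libraries with the comparison before. More members fell than rose: 23 fell and 3 rose, which is 33.8 and 4.41% of them, against 15.9 and 17.8% of all tested genes called lower and higher (33.8% either way). The members' median log2 fold change was -0.13, against 0.00 over all tested genes. Falls were called in most roles, with 8 of 20 hnRNP genes, 5 of 9 SF3A and SF3B genes, 3 of 4 U1 and U2 proteins, 4 of 12 PRPF genes, 2 of 8 U6 LSM genes and 1 of 7 Sm genes, and all were under 1.5-fold. The Sm share of 14.3% was under the 15.9% of all tested genes. Of the 5 other LSM genes 0 fell and 1 rose, and 0 of the 2 U2AF genes fell. Without double mutant replicate 2 the falls numbered 14, with 2 and not 6 among the 19 ring and snRNP genes, and with upper-quartile scaling 36, with 11 of the 19. The hnRNP falls numbered 5 and not 8 without double mutant replicate 1 and likewise without replicate 2. Without Srsf2 mutated replicate 2 the falls among the 19 numbered 11. The authors' deposited table for this comparison had 1 member lower, Sf3b3, and none higher. Its median SE for the members was 0.274, against 0.072 here.

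Prpf40b, whose yeast counterpart Prp40 is a U1 snRNP protein, had 8.96, 7.92 and 5.58 CPM in double mutant libraries, against 12.2, 9.18 and 10.4 CPM in Srsf2 mutated libraries, a log2 fold change of -0.50 ± 0.16 (SE, adjusted p = 0.0215). It was expressed at a low level, and without double mutant replicate 3 its adjusted p was 0.121, without Srsf2 mutated replicate 1 it was 0.0731. Sf3a3, a subunit of SF3A, had 80.7, 76.8 and 81.6 CPM in double mutant, against 105, 101 and 114 CPM in Srsf2 mutated libraries, a log2 fold change of -0.42 ± 0.07 (SE, adjusted p = 0.000131). Prpf19, the ubiquitin ligase that activates the spliceosome, had 231, 235 and 231 CPM in double mutant, against 296, 309.5 and 311 CPM in Srsf2 mutated (log2 change -0.40 ± 0.06 SE, adjusted p = 4.06e-05). In all 3 genes each double mutant library lay below each Srsf2 mutated library. Hnrnph1 had 736, 760.4 and 792 CPM in double mutant, against 991, 974 and 978 CPM in Srsf2 mutated (log2 change -0.36 ± 0.06 SE, adjusted p = 0.000108). Snrpa1, the U2-A′ protein, averaged 37.9 ± 0.797 CPM in double mutant and 48.3 ± 2.40 CPM in Srsf2 mutated (SD, n = 3 each, log2 fold change -0.35 ± 0.08, SE). Prpf31, which holds the U4/U6 snRNP to U5, averaged 76.1 ± 4.60 CPM and 96.9 ± 1.06 CPM in the same groups (-0.35 ± 0.07). These means differed by several times the SD within either group.

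The 3 members that rose in the double mutant have different roles. Lsm10 had 13.1, 12.1 and 11.3 CPM in double mutant, against 8.64, 9.79 and 9.14 CPM in Srsf2 mutated (log2 change 0.40 ± 0.11 SE, adjusted p = 0.00734), and the adjusted p was 0.056 without Srsf2 mutated replicate 1. Prpf18, which acts in the second catalytic step, had 77.4, 81.0 and 83.3 CPM in double mutant, against 64.6, 64.3 and 57.5 CPM in Srsf2 mutated (log2 change 0.38 ± 0.07 SE, adjusted p = 0.000631). Hnrnpll had 143, 147 and 150.4 CPM in double mutant, against 114, 124 and 120.3 CPM in Srsf2 mutated (log2 change 0.30 ± 0.06 SE, adjusted p = 0.000916). For these the groups did not overlap either.

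Sf3b1, U2af1 and U2af2 had log2 fold changes of 0.04 ± 0.06 (SE, adjusted p = 0.665), -0.0020 ± 0.06 (SE, adjusted p = 0.986) and -0.14 ± 0.06 (SE, adjusted p = 0.0833), none of them called. Hnrnpa1 and Hnrnpk had log2 fold changes of -0.13 ± 0.07 (SE, adjusted p = 0.157) and -0.12 ± 0.06 (SE, adjusted p = 0.129), and both passed the threshold with upper-quartile scaling, as did U2af2 (adjusted p = 0.0431 for Hnrnpa1, 0.0258 for Hnrnpk and 0.0182 for U2af2). U2af2 also passed without Srsf2 mutated replicate 1 (0.0468). Hnrnpu, which binds chromatin-attached RNA, fell by 0.21 (adjusted p = 0.00623), and Hnrnpa2b1 by 0.16 (0.0464), a call lost without any 1 double mutant replicate (0.0682 to 0.162), without Srsf2 mutated replicate 3 (0.0919) and with the stricter filter (0.0758). Snrpb fell by 0.25 (0.0297) and lost the call without any 1 double mutant replicate (0.0687 to 0.108) and without Srsf2 mutated replicate 3 (0.0904). Lsm4 fell by 0.31 (0.0183) and lost it without double mutant replicate 1 or 2 (0.0789 and 0.0641) and without Srsf2 mutated replicate 3 (0.0553). Prpf8 had 524, 524 and 528 CPM in double mutant, against 655, 666 and 506 CPM in Srsf2 mutated, a log2 fold change of -0.21 ± 0.09 (SE, adjusted p = 0.0699); without Srsf2 mutated replicate 3, the low library, it was -0.33 (adjusted p = 0.000104). It passed as well with upper-quartile scaling (0.0232), with no filter (0.00657) and with scaling within 5 length classes (0.00382).

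The 2 groups also differed in cell type markers. All 14 erythroid markers rose in the double mutant (22059 to 23592 CPM, against 6397 to 8175 CPM in Srsf2 mutated), as did all 10 late neutrophil markers (35300.0 to 36093 CPM, against 15217 to 18846 CPM). All 11 B lymphoid markers fell (317 to 333 CPM, against 1157 to 1226 CPM), and 8 of 9 early neutrophil markers fell (7362 to 7526 CPM, against 9317 to 10959 CPM). All 7 mast cell and basophil markers fell (469.6 to 477 CPM, against 1028 to 1226 CPM), and 7 of 9 monocyte and macrophage markers rose. Of 8 eosinophil markers 6 rose and 0 fell (1773 to 1820 CPM, against 1291 to 1560 CPM). Of 10 stem cell markers 3 rose and 5 fell, and of 13 genes of dividing cells 3 rose and 5 fell. Of 10 T and NK cell markers 5 rose and 0 fell. Of 9 nuclear-retained RNAs 5 rose and 1 fell. Their part in the members' falls was not tested.

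**Figure D4:**
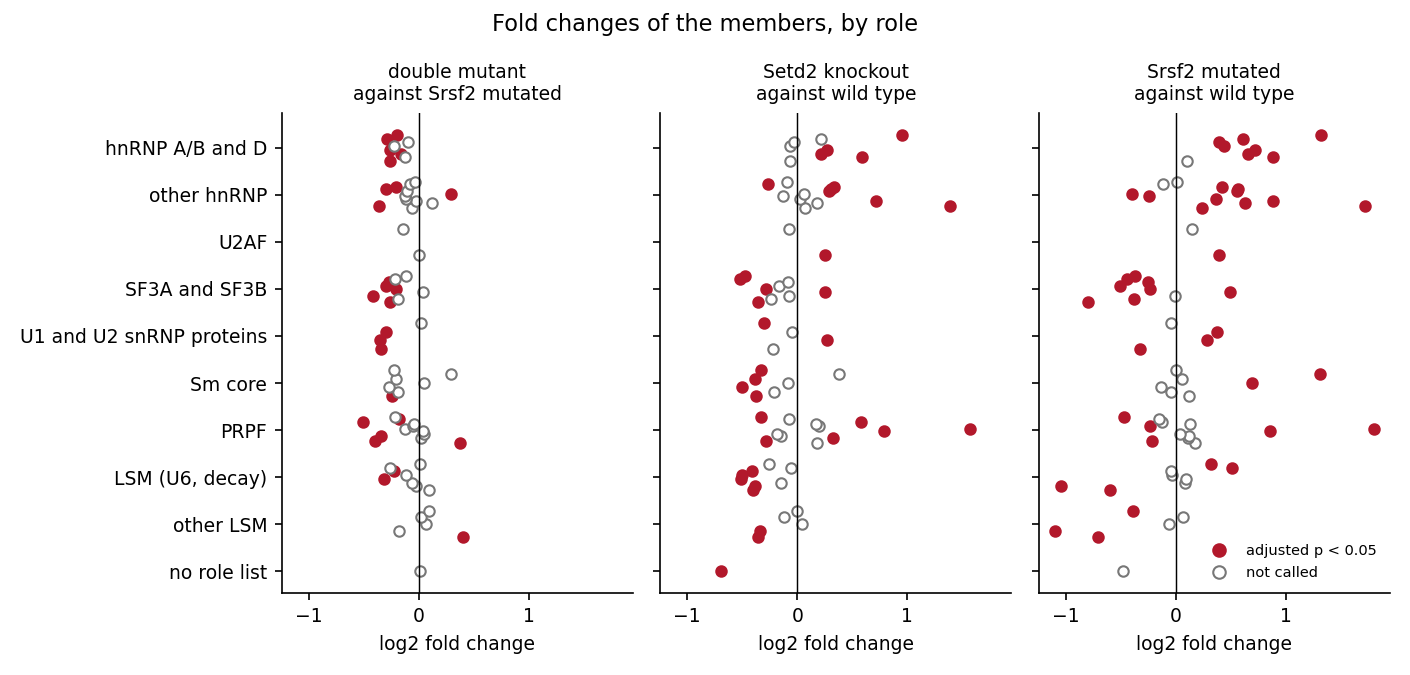
Log2 fold change of each of the 68 members, grouped by role, in double mutant against Srsf2 mutated, Setd2 knockout against wild type and Srsf2 mutated against wild type; filled points passed an adjusted p of 0.05, open points did not. Filled hnRNP points lie mainly left of 0 in the first panel (8 of 9) and mainly right of 0 in the other two (9 of 10 and 15 of 17).

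The effect of Setd2 knockout was set against itself in the 2 backgrounds. The 2 comparisons share no library. Of the 16 members that rose in Setd2 knockout against wild type, 8 fell in double mutant against Srsf2 mutated, which is 34.8% of the 23 that fell there. They were Hnrnpa2b1, Hnrnpa3, Hnrnpdl, Hnrnph1, Hnrnpr, Hnrnpu, Prpf40b and Snrpa1, 6 of them hnRNP genes. Of the 20 that fell in the knockout, 6 also fell in the double mutant (30.0 and 26.1% of the 2 lists): Lsm4, Lsm6, Prpf19, Sf3a1, Sf3b2 and Snrpb. Lsm10 alone fell in the knockout and rose in the double mutant. Of all 68 members, 33.8% fell in the double mutant, against 50% of the 16 that rose and 30.0% of the 20 that fell in the knockout. The same overlaps over all tested genes were not counted, so whether these shares are particular to the members cannot be told.

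The difference itself was tested as the interaction, the Setd2 effect with mutated Srsf2 minus the Setd2 effect with normal Srsf2. It was called negative in 16 members and positive in 4, which is 23.5 and 5.88%, against 15.2 and 16.7% of all tested genes (31.9% either way). Of the 20 hnRNP genes 10 were among the negative ones, and the other 10 were not called. The most negative were Hnrnph1 with -1.75 ± 0.09 (SE, adjusted p = 1.51e-09), Prpf39 with -1.70 ± 0.15 (SE, adjusted p = 3.68e-07), Hnrnpdl with -1.15 ± 0.10 (SE, adjusted p = 2.44e-07) and Prpf40b with -1.09 ± 0.24 (SE, adjusted p = 0.00281). Prpf40b had 16.1 and 18.3 CPM in Setd2 knockout, against 12.1 and 10.9 CPM in wild type, and its log2 fold change was -0.50 with the Srsf2 mutation and 0.58 without it. Prpf38b, Hnrnph3 and Hnrnpa1 followed with -0.75 ± 0.10, -0.74 ± 0.17 and -0.72 ± 0.10 (SE), and none of these 3 was called in double mutant against Srsf2 mutated. Double mutant levels of Prpf39 were 92.3, 97.8 and 92.6 CPM, against 102, 115 and 91.4 CPM in Srsf2 mutated, which overlap (log2 change -0.13 ± 0.09 SE, adjusted p = 0.338).

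The positive interactions were Lsm10 with 0.76 ± 0.17 (SE, adjusted p = 0.00209), Lsm1 with 0.50 ± 0.13 (SE, adjusted p = 0.00895), Lsm2 with 0.36 ± 0.12 (SE, adjusted p = 0.0328) and Sf3b6 with 0.35 ± 0.11 (SE, adjusted p = 0.0244). All but Lsm10 lost the call with upper-quartile scaling, with an adjusted p of 0.0515 in Lsm1, 0.197 in Lsm2 and 0.174 in Sf3b6. Without Setd2 knockout replicate 1 or 2 it was 0.0599 and 0.0803 in Lsm1, 0.287 and 0.0714 in Lsm2, and 0.241 and 0.0733 in Sf3b6. Lsm2 and Sf3b6 also lost it without double mutant replicate 2 or 3 and without Srsf2 mutated replicate 1, Lsm2 without Srsf2 mutated replicate 2 (0.0537) and without wild type replicate 2 (0.136), and Sf3b6 without wild type replicate 1 (0.0849). The positive calls numbered 1 to 11 when 1 library was left out, with 11 without Srsf2 mutated replicate 3, 1 without Setd2 knockout replicate 1, and 2 each without Setd2 knockout replicate 2, Srsf2 mutated replicate 1, double mutant replicate 2 and double mutant replicate 3. The negative calls numbered 14 to 18. Sf3b1 had an interaction of -0.21 ± 0.10 (SE, adjusted p = 0.114) and U2af1 one of -0.25 ± 0.10 (SE, adjusted p = 0.06). Sf3b1 passed with upper-quartile scaling (0.00882), the stricter filter (0.0383), without Srsf2 mutated replicate 3 (0.0458) and without wild type replicate 1 (0.02). U2af1 passed with upper-quartile scaling (0.00446), the stricter filter (0.0146), DESeq2 (0.0485), scaling within 5 length classes (0.00499) and without Srsf2 mutated replicate 2 (0.0231) or 3 (0.0401). Upper-quartile scaling gave 26 negative and 1 positive call, and it gave a median interaction of all tested genes of -0.21, against -0.07.

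**Figure D5:**
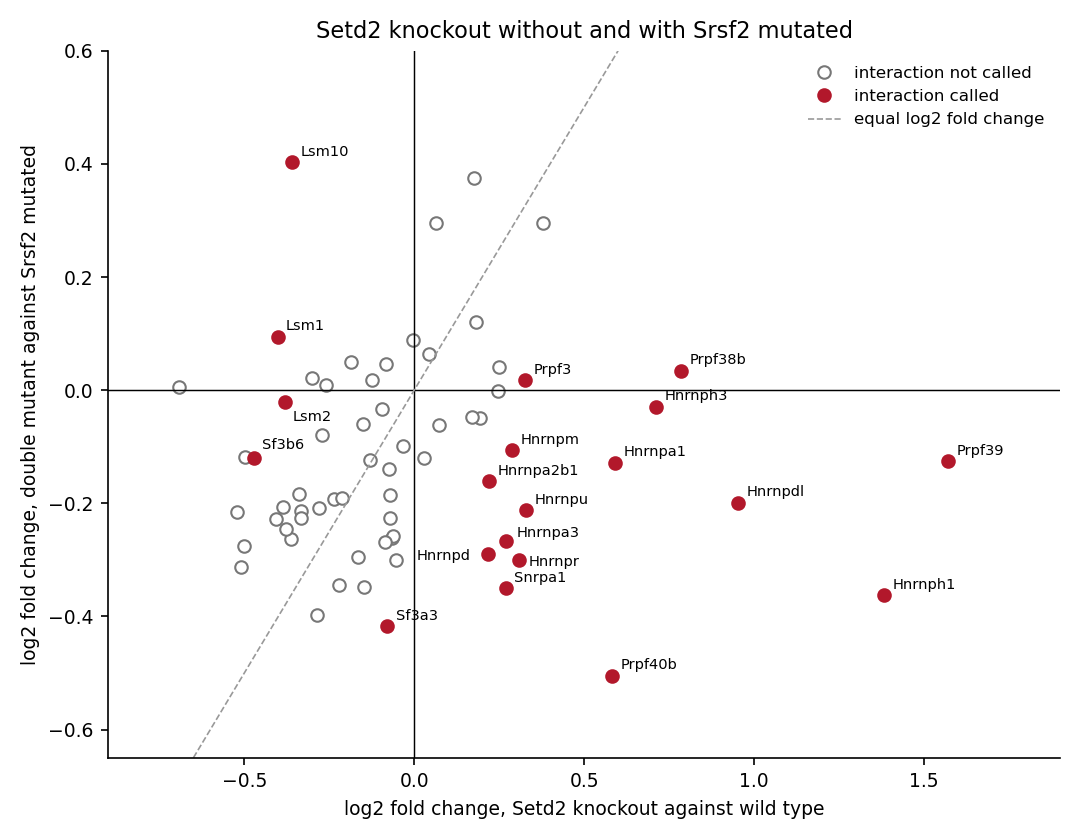
Log2 fold change of each member in double mutant against Srsf2 mutated (vertical) and in Setd2 knockout against wild type (horizontal); filled, named points had a called interaction, and the dashed line marks equal changes. Hnrnph1, Prpf39 and Hnrnpdl lie far right at or below 0 on the vertical axis, and Lsm10 lies at upper left.

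Ratios between related genes within a library show unequal change on the FPKM scale. The ratio of Hnrnph1 to its relative Hnrnpf was 0.973 to 1.06 in double mutant, 1.15 to 1.38 in Srsf2 mutated, 1.10 to 1.13 in Setd2 knockout and 0.426 to 0.476 in wild type libraries. Hnrnpf itself had levels of 124, 118 and 128 FPKM in double mutant, 141, 126 and 147 in Srsf2 mutated, 136 and 124 in Setd2 knockout and 98.8 and 114 in wild type, and 26.5% of its exon bases overlap other genes. Against the X-linked Hnrnph2, Hnrnph1 stood at 3.52 to 3.65, 4.73 to 5.31, 5.20 to 5.67 and 2.21 to 2.54 in the same order. The ratio of Hnrnpd to Hnrnpdl was 0.553 to 0.574 in double mutant, 0.584 to 0.624 in Srsf2 mutated, 0.581 to 0.595 in Setd2 knockout and 0.979 in both wild type libraries. That of Prpf38a to Prpf38b was 0.278 to 0.311, 0.273 to 0.324, 0.253 to 0.280 and 0.518 to 0.527. In these 4 pairs wild type libraries lay clear of all others. In 2 further pairs the split was between libraries with and without the Srsf2 mutation. The ratio of Lsm14a to Lsm14b, RNA-binding proteins of cytoplasmic granules, was 2.25 to 2.53 in double mutant and 2.44 to 2.61 in Srsf2 mutated, against 1.57 to 1.85 in Setd2 knockout and 1.75 to 1.95 in wild type libraries. Snrpa to Snrpb2, the U1-A and U2-B″ proteins, stood at 1.17 to 1.35 and 1.17 to 1.41, against 1.79 to 1.85 and 1.97 to 2.13. Hnrnpl to Hnrnpll was 5.81 to 6.13 in double mutant, 7.55 to 8.44 in Srsf2 mutated, where it was highest, 6.22 to 6.38 in Setd2 knockout and 7.18 to 7.23 in wild type.

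The members differ in length, and in the knockout the fold changes varied with it. In Setd2 knockout against wild type, the 5 members in the shortest of 5 length classes of tested genes had a median log2 fold change of -0.50, with 4 called lower, while all genes of that class had a median of 0.36. The 15 members in the next to longest class had a median of 0.18 with 5 called higher and 1 lower, and the 19 in the longest class had a median of 0.065 with 7 higher and 6 lower. Across the 68 members the correlation of fold change with length was 0.37 (Spearman's rho) in the knockout, 0.13 in Srsf2 mutated against wild type, 0.01 in double mutant against Srsf2 mutated and -0.32 in the interaction. Over all 19289 tested genes the same rho was -0.08, -0.22, -0.03 and 0.07. Genes share libraries and are not independent, so these are descriptions. A separate scaling factor for each length class left 14 rises and 21 falls in the knockout.

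Many spliceosome genes control their own level by making transcripts that keep an intron or are degraded. In GENCODE M21, 49 of the 67 coding members (73.1%) have an annotated retained-intron model, against 56.2% of 14070 coding tested genes, and 27 (40.3%) have a nonsense-mediated decay model, against 27.4%. In Setd2 knockout against wild type the members with a decay model had a median log2 fold change of 0.22, and those without one -0.12. In all coding tested genes these medians were 0.00 and -0.08. In Srsf2 mutated against wild type the members' medians were 0.15 and -0.03, against -0.11 and -0.09 in all coding tested genes. In double mutant against Srsf2 mutated they were -0.13 and -0.19, against -0.03 and -0.02. For retained-intron models, members' medians with and without one were -0.095 and 0.021 in the knockout, against -0.039 and -0.092 in all coding tested genes. They were 0.086 and 0.082 in Srsf2 mutated against wild type, where all coding tested genes had -0.10 and -0.076. In double mutant against Srsf2 mutated they were -0.18 and -0.056, against -0.034 and -0.0029. The counts are of whole genes and do not separate the transcripts.

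The other splicing genes were a list of 109, among them SR proteins, helicases and tri-snRNP proteins, and all were tested. In Setd2 knockout against wild type 31 rose and 17 fell (28.4 and 15.6%, against 18.7 and 19.9% of all tested genes), with the smallest adjusted p in Snrnp48 of the minor spliceosome (1.59 ± 0.09, SE), the polypyrimidine tract binding protein Ptbp2 (2.03 ± 0.15) and Rbm25 (0.85 ± 0.07). In Srsf2 mutated against wild type 41 rose and 26 fell (37.6 and 23.9%, against 28.5 and 27.8%), with the helicase gene Ddx5 (1.25 ± 0.06), Ptbp2 (2.56 ± 0.14) and Snrnp48 (1.38 ± 0.08) at the smallest adjusted p. In double mutant against Srsf2 mutated 26 fell and 9 rose (23.9 and 8.26%, against 15.9 and 17.8%), with falls in Eftud2, the U5 GTPase (-0.38 ± 0.06), and Rnps1 (-0.35 ± 0.07), and a rise in Zrsr1 (0.88 ± 0.12). The interaction was negative in 34 and positive in 8 (31.2 and 7.34%, against 15.2 and 16.7%), with Snrnp48 (-1.62 ± 0.11), Ptbp2 (-2.14 ± 0.18) and Pnn (-0.97 ± 0.09) leading. Their median log2 fold changes were 0.02 in the knockout, 0.04 in Srsf2 mutated and -0.10 in the double mutant, against 0.04, 0.08 and 0.00 over all tested genes.

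Some members share reads with copies. Of the 68, 23 have an annotated pseudogene copy at 95% identity or more over at least 200 bases, and for 9 the copies' counts came to over 5% of the member's in some library. Besides Snrpf, the highest shares were 58.8% for Hnrnpa3, 52.6% for Lsm5 and 26.9% for Lsm7. Exons of 6 members overlap another gene on the same strand and those of 18 on the opposite strand, and the strandedness of the libraries is not stated. Leaving out the 11 members most exposed to copies or overlaps left 22 falls and 3 rises among 57 in the double mutant, 13 rises and 17 falls in the knockout, and 17 rises and 18 falls in Srsf2 mutated libraries, where it took away 8 rises and no fall and the median was 0.012. Snrpert, itself the pseudogene copy of Snrpe, stayed among the 57.

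In the authors' deposited table for Setd2 knockout against wild type, 17 members were higher and 19 lower at an adjusted p under 0.05, and 16 and 19 of these were called the same way here. In the authors' deposited table for Srsf2 mutated against wild type, 27 were higher and 17 lower. In the authors' deposited table for double mutant against Srsf2 mutated, 1 member was lower and none higher, with a median SE of 0.274 for the members' log2 fold changes, against 0.072 here, and 58 members had the same sign.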

How the data were processed

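The members and gene lists were chosen with earlier results of these data known. Each of the 3 deposited tables pairs gene-level raw read counts of its libraries with FPKM, per the file headers. Columns of the authors' own comparison follow, namely a log2 fold change and its error, a test p-value and a score of mean abundance. The submitters' processing notes name the aligners HISAT2 2.0.5 and STAR 2.6.1a, the counters featureCounts 2.0.1 and HTSeq 0.9.1, and SAMtools 1.7, Seurat 3.2.0 and DESeq2 1.22.2, giving no step for any of them. The deposited FPKM equalled count over listed length and library total. The 5 libraries standing in 2 tables had identical counts in both, and the tables were joined over 55421 genes.

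Genes were filtered with filterByExpr, which left 19289, scaled by TMM and fitted over the 10 libraries with edgeR 4.0.16 (R 4.3.3, quasi-likelihood), 1 term a group, with 4 contrasts. P-values were adjusted by Benjamini-Hochberg over all 19289 genes, the threshold was 0.05, and SE is the log2 fold change divided by the root of its F. The procedure was run on simulated counts in which far fewer genes changed than were called here, so that run cannot check the scaling. Alternatives were DESeq2 1.42.0, other scalings, no filter, a stricter filter (at least 1 CPM in every library of a group, and a higher mean count), a replicate block, only the groups compared, and each library left out. Positions, exon overlaps and transcript models came from GENCODE M21 on GRCm38, and pseudogene copies from blastn. Named members were 11 set genes, up to 6 each way per comparison with the largest called change and groups that did not overlap, the 5 highest and 5 lowest in FPKM, and related pairs; others named complete a group and were chosen after their values were seen. Libraries held at least 32117387 counts, so counting error is small except for genes with few counts such as Snrpf.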

Additional observations from a re-analysis of the deposited data

Results flagged for a closer look

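In 20 members the effect of Setd2 knockout differed between libraries with mutated and with normal Srsf2 by the interaction test, given as log2 of the effect with mutated Srsf2 over that with normal Srsf2. Among hnRNP genes it was -1.75 in Hnrnph1, -1.15 in Hnrnpdl, -0.74 in Hnrnph3, -0.72 in Hnrnpa1, -0.61 in Hnrnpr, -0.54 in Hnrnpu, -0.54 in Hnrnpa3, -0.51 in Hnrnpd, -0.39 in Hnrnpm and -0.38 in Hnrnpa2b1. Among PRPF genes it was -1.70 in Prpf39, -1.09 in Prpf40b, -0.75 in Prpf38b and -0.31 in Prpf3, and among U2 snRNP genes -0.62 in Snrpa1, -0.34 in Sf3a3 and 0.35 in Sf3b6. Among LSM genes it was 0.76 in Lsm10, 0.50 in Lsm1 and 0.36 in Lsm2. The adjusted p ran from 1.51e-09 in Hnrnph1 to 0.0412 in Prpf3. The 16 negative and 4 positive calls are 23.5 and 5.88% of the members, against 15.2 and 16.7% of all tested genes (31.9% either way).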

How the results depend on the processing

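Of the recomputed counts of called members, 98 stayed within 1.5 times the value in the report and 14 did not. With upper-quartile scaling the falls numbered 36 in double mutant against Srsf2 mutated and 13 in Setd2 knockout against wild type, and the interactions 26 negative and 1 positive. Scaling within 5 length classes gave 7 positive interactions. When 1 library was left out, falls numbered 14 to 29 in double mutant against Srsf2 mutated and 5 to 17 in Setd2 knockout against wild type, and positive interactions 1 to 11. A lone library left in a group is assumed to vary like the other groups. The cause of these shifts was not tested. Genes with few counts, such as Snrpf, limit what this depth can show.

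The members' median in Setd2 knockout against wild type was 0.015 with upper-quartile scaling, 0.0052 with the stricter filter and -0.015 with scaling within 5 length classes, against -0.08. In Srsf2 mutated against wild type it was 0.18, 0.17 and, with the replicate block, 0.026, against 0.08. With upper-quartile scaling it was -0.19 in double mutant against Srsf2 mutated and -0.21 in the interaction, and -0.12 there with the stricter filter. When 1 library was left out the median ran over -0.19 to -0.11 in double mutant against Srsf2 mutated, -0.14 to -0.0076 in Setd2 knockout against wild type, 0.011 to 0.12 in Srsf2 mutated against wild type and -0.14 to -0.015 in the interaction.

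Of the recomputed values of named members, 1014 kept direction and side of the threshold, 61 lost the call, 28 gained it and 15 changed sign. In double mutant against Srsf2 mutated, Sf3b1 was -0.015 with upper-quartile scaling and -0.00066 to 0.058 with 1 library left out (-0.00066 without Srsf2 mutated replicate 1). U2af1 was 0.0030 with DESeq2, 0.0032 with its size factors, 0.022 with the stricter filter and -0.043 to 0.027 with 1 library left out. In Setd2 knockout against wild type, Hnrnpk was -0.035 with scaling within 5 length classes, and U2af2 0.017 with upper-quartile scaling and 0.010 with the stricter filter. In Srsf2 mutated against wild type, Lsm4 was -0.33 with scaling within 5 length classes and -0.064 to 0.26 with 1 library left out. The interaction was -0.025 in Prpf8 and -0.012 in Snrpb with upper-quartile scaling. Of these values, the one of Lsm4 with length classes passed the threshold.

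Deviations of same-numbered replicates from their group means correlated by at most 0.0875. In a group of 2 libraries these deviations mirror each other, so the check cannot decide whether replicates were paired. With the replicate block 25 members fell and 3 rose in double mutant against Srsf2 mutated, 17 rose and 20 fell in Setd2 knockout, 23 rose and 18 fell in Srsf2 mutated, and interactions were 16 negative and 4 positive.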

Other observations

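Prpf4b, the kinase that the choice of members left out, phosphorylates spliceosomal proteins. It had 191, 191 and 199 CPM in double mutant, 190.3, 193 and 160.4 CPM in Srsf2 mutated, 265 and 242 CPM in Setd2 knockout and 136 and 120.4 CPM in wild type libraries. Its log2 fold change was 0.09 ± 0.08 (SE, adjusted p = 0.387) in double mutant against Srsf2 mutated, 0.98 ± 0.10 (SE, adjusted p = 1.08e-06) in Setd2 knockout against wild type and 0.50 ± 0.09 (SE, adjusted p = 0.000162) in Srsf2 mutated against wild type, with an interaction of -0.89 ± 0.12 (SE, adjusted p = 3.87e-05). Both wild type libraries lay below all others. Srsf2 itself had 224, 219 and 227 CPM in double mutant, 227, 222 and 245 CPM in Srsf2 mutated, 322 and 325 CPM in Setd2 knockout and 282 and 244 CPM in wild type libraries, and its whole-gene level in the 2 groups with the mutation overlapped.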
